A study of Mus musculus with 6 samples.

Results

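The 40 genes described here encode the COPII and COPI vesicle coats and the proteins that load, tether and fuse the vesicles travelling between the endoplasmic reticulum (ER) and the Golgi. They are a list of symbols drawn up by function, with earlier results of these data known, so the list is not independent of them. All 40 were measured among the 18193 genes on the array. By role they comprise 12 genes of the COPII coat and its assembly, 9 of the COPI coat and its GTPase cycle, 11 cargo receptors, 7 tethers, SNAREs and Golgi matrix proteins, and Tango2. Expression was measured on 6 one-colour Affymetrix arrays from C57BL/6 mice. Of these, 3 held plasma cells of the bone marrow, sorted as B220- CD138+ after bead enrichment, 7 days after a boost with KLH (keyhole limpet hemocyanin, a protein antigen), with 50000 to 70000 cells per array. The other 3 held naive spleen B cells, gated on B220+ CD23+, with 2000000 to 3000000 cells per array. The labels give no age, sex or pooling of animals. Tissue, boost, enrichment and input differed together with cell type and cannot be told apart from it.

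COPII vesicles carry newly folded secretory and membrane proteins out of the ER, and COPI vesicles return escaped ER proteins and cargo receptors from the Golgi. The small GTPase Sar1 starts a COPII coat, Sec23 and Sec24 form its inner layer and select cargo, and Sec13 and Sec31 form the outer cage. Coatomer is recruited to Golgi membranes by GTPases of the Arf family to form COPI. Plasma cells secrete antibody at a high rate and have an expanded ER, and all of that antibody leaves the ER by this route.

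The fold changes below are plasma cells over B cells on the scale log2(intensity + 16), with the standard error (SE) of limma's fit. Each gene is represented by its brightest probe set that carries 1 symbol. A gene is called at a Benjamini-Hochberg adjusted p of at most 0.05 over all 18193 genes. Intensities are given in the order of arrays 1, 2 and 3 of each group. Levels of different genes come from different probe sets and are not compared with each other. In these bulk samples fewer cells of a type and less RNA per cell cannot be told apart.

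The arrays carried the markers of their labelled cells. The summed intensity of 6 plasma cell markers lay between 76109.8 and 78330.2 on plasma cell arrays and between 13014 and 13501 on B cell arrays, and that of 7 follicular B cell markers between 2866 and 3470.3 on plasma cell arrays and between 40596 and 48532 on B cell arrays. B cell array 1 stood apart, with correlations of 0.933 and 0.926 with B cell arrays 2 and 3 over all probe sets, against 0.992 between the other two, and with a median intensity of 130.0, against 86.7 to 95.1 on the other 5 arrays. The sum of 6 measured T and NK cell markers was between 857 and 1554 on plasma cell arrays, 4450.4 on B cell array 1, and 172 and 215 on B cell arrays 2 and 3. In the same order of arrays, 7 granulocyte markers summed to between 8433 and 19932, to 12502, and to 2765 and 1774, and 4 erythroid markers to between 194 and 506, to 1373, and to 72.2 and 91.9. Markers of monocytes and macrophages (5) summed to between 1810.0 and 2268 on plasma cell arrays and between 3812 and 5962 on B cell arrays, of stroma and endothelium (5) to between 988 and 1077 on plasma cell arrays and between 1308 and 1517 on B cell arrays, of megakaryocytes (3) to between 209 and 254 on plasma cell arrays and between 156 and 206 on B cell arrays, and of dendritic cells (4) to between 579 and 1236 on plasma cell arrays and between 580.0 and 674 on B cell arrays. The sums hide members that went opposite ways. In the monocyte and macrophage list 4 of 5 genes were called lower, among them Lyz2, while Cd68 was called higher at 1082 ± 48.8 in plasma cells, against 311 ± 27.8 in B cells (SD, n = 3 each). In the stromal and endothelial list Pecam1 was called lower and Cdh5 higher, at 489.9 ± 58.4 in plasma cells, against 91.9 ± 19.6 in B cells. In the dendritic cell list Zbtb46 was called lower and Flt3 higher, at 561 ± 300 in plasma cells, against 72.2 ± 26.0 in B cells. Of the T and NK cell and granulocyte lists only Cd4 and Mpo were called, both higher. Cd4 averaged 388 ± 73.8 in plasma cells and was within background on all B cell arrays. Mpo averaged 177 ± 51.8 in plasma cells, against 53.0 ± 18.4 in B cells. Cxcl12, a stromal chemokine, was within background on all plasma cell arrays, and the erythroid factor Klf1 on all B cell arrays. Xist, which marks female cells, lay between 8070.3 and 8702 on plasma cell arrays and 8408 on B cell array 1, but 30.8 and 18.1 on B cell arrays 2 and 3. Kdm5d, which marks male cells, was 8.84, 7.89 and 3 on plasma cell arrays and 3.57 on B cell array 1. On B cell arrays 2 and 3 it was 1507 and 1576. Without B cell array 1, female-marked plasma cells thus face male-marked B cells. In that comparison sex cannot be told apart from cell type. With all arrays, B cell array 1 was the only female-marked B cell array, so sex was still largely tied to cell type. Ratios of 3′ to 5′ control probe sets, a sign of RNA quality, were 1.67 to 1.77 in plasma cells against 1.49 to 1.59 in B cells for actin, and 1.60 to 1.69 in plasma cells against 1.91 to 2.36 in B cells for Gapdh. The part of these differences in the results below was not tested, and results are also given without B cell array 1 where it mattered.

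Nearly the whole set was more abundant in plasma cells. Of the 40 genes, 36 were called higher, where 17.7% of all genes were, and 1 was called lower, where 12.4% of all genes were. The exception that fell was Sec24b, and Tmed2, Tmed9 and Tango2 were not called. For 39 genes all plasma cell arrays lay above all B cell arrays, and for Sec24b all lay below them. Among all genes the corresponding shares were 25.5% and 22.6%. The median log2 fold change of the 40 genes was 1.12, against −0.06 over all genes, a difference of 1.18. A call with a rise of at least 2-fold was made for 25 of the 40 genes (11.1% of all genes), and of at least 4-fold for 7 (4.56% of all genes). Those 7 were Arfgap3, Sec24d, Kdelr3, Lman1, Tmed3, Bet1 and Surf4.

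**Figure D1:**
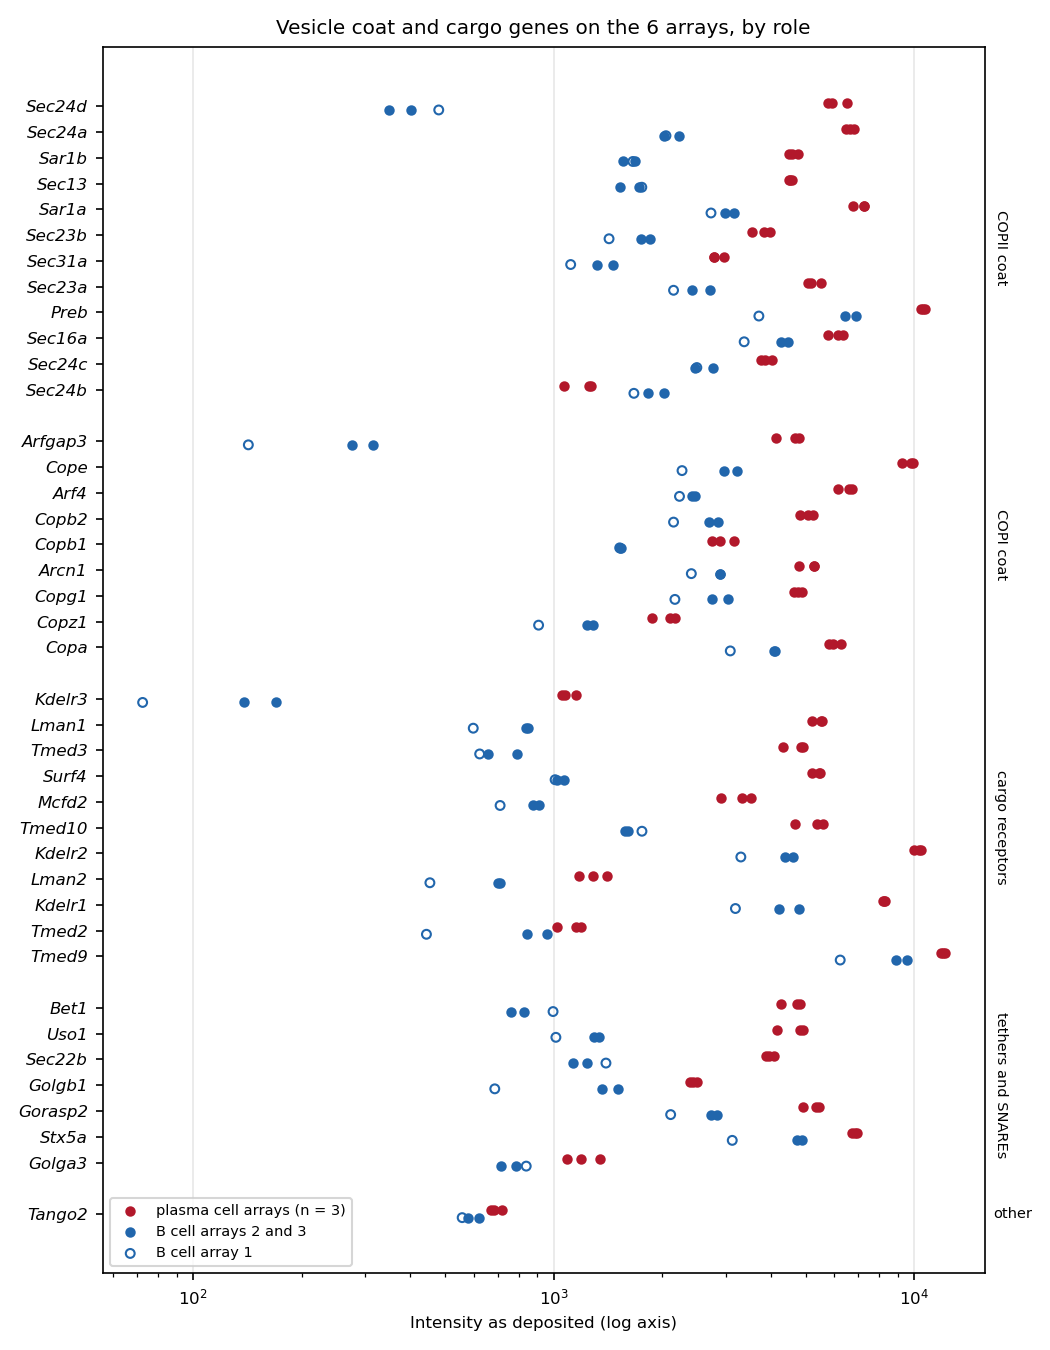
Intensity as deposited (log axis) of the 40 genes on each array, grouped by role and ordered by fold change, with plasma cell arrays in red above B cell arrays in blue and B cell array 1 as an open circle. For 39 of 40 genes the red points lie to the right of all blue points, and for Sec24b to the left.

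The count without B cell array 1 was 37 higher and 1 lower, with a median log2 fold change of 1.03. In that fit, where sex differed together with cell type, 4135 of all 18193 genes were called higher and 3856 lower. The count of the set was lowest without plasma cell array 1, at 27 higher and 0 lower, where 2239 and 1351 of all genes were. On B cell array 1 the set ran low: it was the lowest of the B cell arrays for 31 of the 40 genes, and its median log2 difference from the mean of B cell arrays 2 and 3 was −0.33, against −0.01 over all genes. Among plasma cells, array 3 was the lowest for 33 genes, with a median log2 difference of −0.05 from the plasma cell mean. How often either array was the lowest over all genes was not counted. The median coefficient of variation of the 40 genes was 4.19% over the plasma cell arrays, 14.2% over the 3 B cell arrays and 4.98% over B cell arrays 2 and 3.

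The promoters of the set were searched for motifs bound by factors of the ER stress response, and whether those factors act on these genes was not tested. RefSeq promoter windows of build GRCm38.p6, from 250 bases before to 50 after a gene's start, were found for 35 of the 40 genes. Arcn1, Golgb1, Kdelr2, Lman1 and Tmed2 had no entry. The motif TGACGTG, the core of the element recognised by XBP1 and ATF6, was searched on both strands and found in 6 of the 35 genes (17.1%), against 8.11% of 74 other genes of ER to Golgi traffic, 2.84% of 14452 measured genes and 2.22% of all 27025 genes with a window. These were Sec24d, Kdelr3, Sec23a, Copb1, Copb2 and Stx5a, which holds it at 2 places. Each of the 7 matches continued as TGACGTGG, an extension examined after the matches were seen. It was held by 5.41% of the 74 other traffic genes and 0.989% of measured genes. All 7 matches began within 50 bases of the gene's start, in windows that end 50 bases after it. Positions of matches in other genes were not examined, so no background stands beside this count. The full ER stress response element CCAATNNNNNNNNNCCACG and its variant ERSE-II (ATTGG, any base, then CCACG) were found in 0 of the 35 genes, against 0.138% and 0.062% of measured genes. TGACGTGG and both stress elements contain the shorter CCACG on one strand or the other. That shorter motif was found in 26 of 35 genes (74.3%), against 64.9% of the 74 other traffic genes and 45.9% of measured genes. A match is a description of the letters and shows no binding.

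The windows of Sec24d and Kdelr3, the genes of their families that rose most, are printed whole, 5′ to 3′ along the gene, with TGACGTG or its reverse complement in capitals, beside that of Sec24b, which fell and holds only CCACG (in capitals as its reverse complement). They lie at chr3:123267246-123267545 on the plus strand, chr15:79516158-79516457 on the plus strand and chr3:130060858-130061157 on the minus strand. The match starts 26 bases before the start of Sec24d and 29 before that of Kdelr3. In the same families Sec24a and Kdelr1, which rose by 1.65 and 1.04, hold neither TGACGTG nor CCACG. Sec24c, which rose by 0.59, holds only CCACG, as Sec24b does, and Kdelr2 has no window.
Sec24d: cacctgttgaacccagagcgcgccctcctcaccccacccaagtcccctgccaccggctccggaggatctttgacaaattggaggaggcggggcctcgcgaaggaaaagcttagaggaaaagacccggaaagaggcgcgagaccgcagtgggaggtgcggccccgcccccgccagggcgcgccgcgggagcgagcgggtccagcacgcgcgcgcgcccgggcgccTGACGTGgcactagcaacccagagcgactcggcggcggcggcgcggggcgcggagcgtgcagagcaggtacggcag
Kdelr3: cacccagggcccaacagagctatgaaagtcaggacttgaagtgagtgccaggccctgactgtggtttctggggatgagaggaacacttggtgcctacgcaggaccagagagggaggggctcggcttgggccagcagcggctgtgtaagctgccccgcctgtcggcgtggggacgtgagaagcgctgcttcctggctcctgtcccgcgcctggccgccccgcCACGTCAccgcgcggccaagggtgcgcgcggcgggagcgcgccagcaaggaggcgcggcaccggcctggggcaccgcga
Sec24b: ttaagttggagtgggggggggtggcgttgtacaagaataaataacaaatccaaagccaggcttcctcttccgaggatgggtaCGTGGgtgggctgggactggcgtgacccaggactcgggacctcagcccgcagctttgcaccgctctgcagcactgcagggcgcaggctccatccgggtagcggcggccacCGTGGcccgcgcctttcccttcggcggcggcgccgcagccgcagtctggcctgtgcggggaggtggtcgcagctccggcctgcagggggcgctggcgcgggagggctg

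The stretches around the same motif in the other genes, again with it in capitals, lie at chr12:59011994-59012022 (minus strand, Sec23a), chr7:114254690-114254718 (minus strand, Copb1), chr9:98563714-98563742 (plus strand, Copb2), and chr19:8741423-8741451 and chr19:8741452-8741473 (plus strand, Stx5a).
Sec23a: ctcctccccttTGACGTGgcagaggcggc
Copb1: ccgcccccttcCACGTCAgccaaggactt
Copb2: cccggaagttcCACGTCAgtgggttggcc
Stx5a, first match: ggcgcagcagcCACGTCAccgagttagga
Stx5a, second match: gtacgtctaggTGACGTGgcgg
The log2 fold changes of the genes with this motif ran from 0.71 for Stx5a to 3.84 for Sec24d. Genes without the motif rose too, among them Arfgap3, which had the highest fold change of the set with all arrays and the brightest probe sets. A link between the motif and the fold change was not tested.

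In the COPII coat, 11 of 12 genes were called higher and 1 lower, with a median log2 fold change of 1.15. The 4 Sec24 paralogues, which bind the sorting signals of cargo, changed unequally. Sec24d had intensities of 5919.8, 6511 and 5774 in plasma cells, against 479.9, 349.6 and 401 in B cells. Its log2 fold change of 3.84 ± 0.15 SE (adjusted p = 4.89e-05) ranked it 172 of 18193 genes. All plasma cell arrays lay over 10-fold above each B cell array. Sec24a had 6648, 6791 and 6464 in plasma cells, against 2048, 2028 and 2221 in B cells, and rose by 1.65 ± 0.11 (adjusted p = 0.000222). Its groups were far apart and each was tight. Sec24c had 4029, 3751 and 3844 in plasma cells, against 2494, 2472 and 2773 in B cells, a log2 fold change of 0.59 ± 0.12 (adjusted p = 0.0124). Sec24b had 1268, 1066 and 1253 in plasma cells, against 1668, 1829 and 2028 in B cells, a log2 fold change of −0.62 ± 0.14 (adjusted p = 0.0206). The Sec24b groups did not overlap, but the gap between them was small.

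The calls of these last 2 genes lie near the threshold. For Sec24b the adjusted p exceeded it with plasma cell array 1 (0.0618), 2 (0.0828) or 3 (0.055) left out, with B cell array 2 (0.0675) or 3 (0.0699) left out and after median centring (0.246), and was 0.00889 without B cell array 1. For Sec24c it did so with plasma cell array 1 (0.0647) left out, with B cell array 2 (0.0526) left out, with the mean of its probe sets (0.419) and after median centring (0.0878). The second, dimmer probe sets of Sec24b and Sec24c, at log2 fold changes of −0.28 and −0.07, were not called.

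Between paralogues the test was made on the log ratio of both genes within each array, for 11 pairs. With 3 arrays against 3 the exact two-sided permutation test cannot give less than p = 0.1, or 0.11 after adjustment over the 11 pairs, so no pair could pass 0.05. The 6 pairs among the Sec24 genes all reached that smallest p, and their arrays did not overlap. The rise of Sec24d exceeded that of Sec24a by 2.19 (95% interval 1.81 to 2.57) on the log2 scale, that of Sec24c by 3.26 (95% interval 2.82 to 3.70) and the change of Sec24b by 4.46 (95% interval 3.83 to 5.09). Sec24a exceeded Sec24c by 1.07 (95% interval 0.95 to 1.19) and Sec24b by 2.27 (95% interval 1.97 to 2.57), and Sec24c exceeded Sec24b by 1.20 (95% interval 1.00 to 1.41). The order Sec24d, Sec24a, Sec24c, Sec24b was the same under all 16 alternative settings.

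Sec23, the partner of Sec24 and the activator of Sar1 GTP hydrolysis, rose in both of its forms. Sec23b had 3832, 3967 and 3536 in plasma cells, against 1424, 1854 and 1746 in B cells (1.17 ± 0.15, adjusted p = 0.00209). Sec23a had 5165, 5494 and 5083 in plasma cells, against 2149, 2425 and 2704 in B cells (1.11 ± 0.13, adjusted p = 0.00181). The plasma cell arrays of each lay clearly above its B cell arrays, and the rises differed by 0.06 (95% interval −0.16 to 0.28) with an exact permutation p of 0.5. A difference between them was thus not detected, with the interval reaching to 0.28 on the log2 scale.

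Both Sar1 GTPases rose. Sar1b had 4574, 4749 and 4504 in plasma cells, against 1658, 1561 and 1685 in B cells (1.49 ± 0.11, adjusted p = 0.000311). Sar1a had 7266, 7235 and 6748 in plasma cells, against 2729.6, 2988 and 3169 in B cells (1.25 ± 0.12, adjusted p = 0.000779). Groups were separate for both. The rise of Sar1b exceeded that of Sar1a by 0.23 (95% interval 0.03 to 0.43) at the smallest p of 0.1, but the sign turned to −0.14 with the mean of all probe sets, which takes in a second Sar1a probe set that rose by 2.00. Preb, the membrane protein that loads Sar1 with GTP, was called higher (0.95 ± 0.25, adjusted p = 0.0372), and its 2 other probe sets rose by 1.42 and 2.40. Without B cell array 1 its log2 fold change was 0.67 (adjusted p = 0.00290). Its adjusted p exceeded the threshold with plasma cell array 1 (0.113), 2 (0.11) or 3 (0.101) left out, with B cell array 2 (0.0632) left out, with a pseudocount of 1 (0.0511) and after median centring (0.074).

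**Figure D2:**
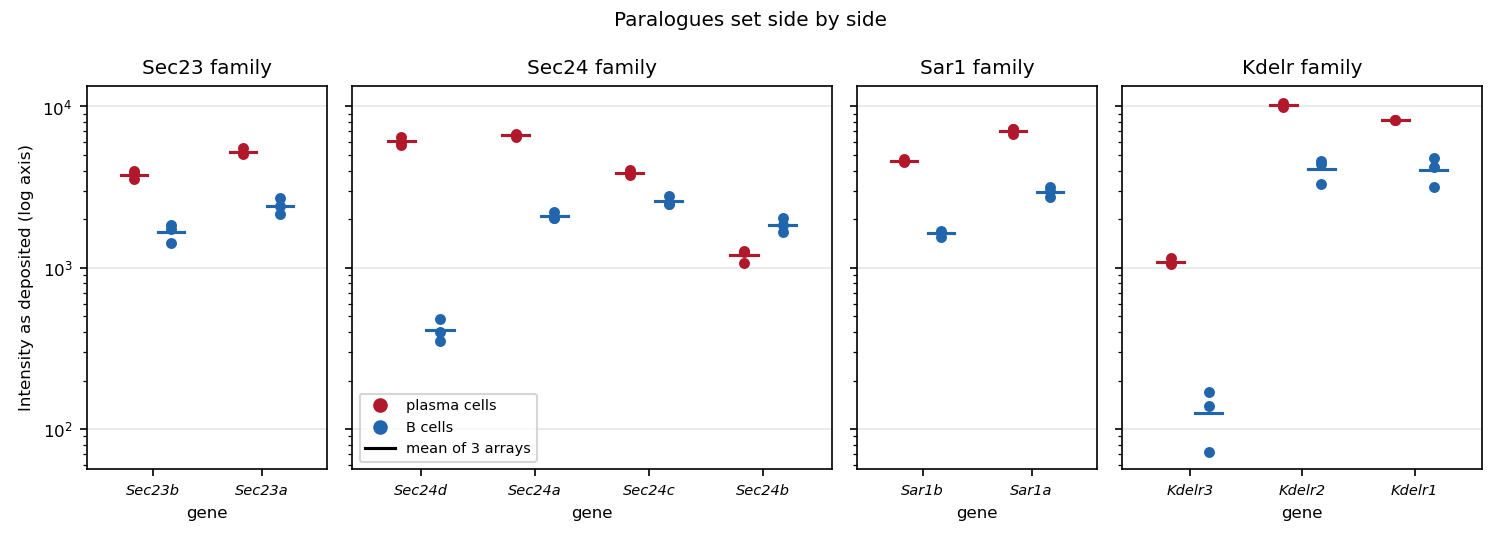
Intensity as deposited (log axis) of the Sec23, Sec24, Sar1 and Kdelr paralogues, plasma cells in red to the left of B cells in blue, with a dot per array and a bar at the mean of 3. Sec24d and Kdelr3 show the widest gaps between groups in their families, and Sec24b is the gene whose plasma cell arrays lie below its B cell arrays.

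The remaining COPII genes rose by moderate amounts. The cage subunits Sec13 (1.43 ± 0.12, adjusted p = 0.000427) and Sec31a (1.13 ± 0.14, adjusted p = 0.00219) were both called. Sec16a, the scaffold of ER exit sites, had 6132, 6326 and 5771 in plasma cells, against 3373, 4264 and 4469.8 in B cells. Its rise was small, 0.60 ± 0.15 (adjusted p = 0.0293), although the groups did not overlap and a second probe set rose by 0.69. Its adjusted p passed above the threshold with plasma cell array 1 (0.103), 2 (0.107) or 3 (0.0713) left out, with B cell array 2 (0.0675) left out and after median centring (0.125).

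All 9 genes of the COPI group were called higher, with a median log2 fold change of 0.93. The 7 coatomer subunits had log2 fold changes from 0.68 for the alpha subunit Copa to 1.78 for the epsilon subunit Cope, with a median of 0.90. Between them stood Copz1 (zeta, 0.85 ± 0.17), Copg1 (gamma, 0.85 ± 0.16), Arcn1 (delta, 0.90 ± 0.13), Copb1 (beta, 0.93 ± 0.12) and Copb2 (beta prime, 0.98 ± 0.15). Among the brightest probe sets only that of Cope rose more than 2-fold, with 9765, 9935 and 9262 in plasma cells, against 2269, 3218 and 2973 in B cells (1.78 ± 0.16, adjusted p = 0.000688). Dimmer probe sets of other subunits also passed 2-fold and were called, at log2 fold changes of 1.24 and 1.47 for Arcn1, 1.34 for Copb2 and 1.15 for Copa. The calls of Copa (adjusted p = 0.0205) and Copz1 (0.0142) did not hold under every alternative. For Copa the adjusted p exceeded the threshold with plasma cell array 1 (0.0761), 2 (0.0826) or 3 (0.0606) left out and after median centring (0.0942). For Copz1 it did so with plasma cell array 1 (0.0638) or 2 (0.0602) left out, with the mean of its probe sets (0.363) and after median centring (0.0568).

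The regulators of the coat differed more from each other. Arfgap3, which triggers GTP hydrolysis on Arf and so release of the COPI coat, had 4659.8, 4774 and 4144 in plasma cells, against 142, 276 and 316 in B cells. It had the highest fold change of the set, 4.19 ± 0.29 (adjusted p = 0.000266), and ranked 130 of 18193 genes. B cell array 1 was the lowest of its group, and without it the log2 fold change was 3.86, below the 3.96 of Sec24d. With the mean of all probe sets Arfgap3 also stood below Sec24d, at 3.71 against 3.84. The second probe set of Arfgap3 rose by 3.23. Arf4, a GTPase of the Arf family, rose by 1.45 ± 0.11 (adjusted p = 0.0004), with 6719.7, 6594 and 6154 in plasma cells, against 2232, 2413 and 2469 in B cells.

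Of 11 cargo receptors, 9 were called higher and 0 lower, with a median log2 fold change of 1.65. The KDEL receptors, which return escaped ER chaperones from the Golgi, were unequal. Kdelr3 had 1075, 1153 and 1053 in plasma cells, against 72.5, 138 and 169.5 in B cells (3.02 ± 0.29, adjusted p = 0.000748). B cell array 1 was again the lowest, and without it the log2 fold change was 2.71. Kdelr2 had 10271, 10446 and 9985 in plasma cells, against 3303, 4376 and 4605 in B cells (1.33 ± 0.16, adjusted p = 0.00188). Kdelr1 had 8257, 8299 and 8196 in plasma cells, against 3190.3, 4204 and 4791 in B cells (1.04 ± 0.18, adjusted p = 0.00684). No array of one group overlapped the other for any of the 3 genes.

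The rise of Kdelr3 exceeded that of Kdelr2 by 1.69 (95% interval 1.20 to 2.18) and that of Kdelr1 by 1.98 (95% interval 1.56 to 2.41) on the log2 scale, and Kdelr2 exceeded Kdelr1 by 0.29 (95% interval 0.18 to 0.40). Each had the smallest exact permutation p of 0.1. The size for Kdelr2 depended on the probe set. Its second, dimmer probe set rose by 2.88, and with the mean of both the excess of Kdelr3 over Kdelr2 was 0.92 and that of Kdelr2 over Kdelr1 was 1.07.

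Lman1 and Mcfd2 form a receptor complex that in humans carries coagulation factors, and both rose strongly. Lman1 had 5517, 5534 and 5207 in plasma cells, against 598, 839.6 and 846 in B cells (2.82 ± 0.17, adjusted p = 0.000157). Its 4 other probe sets were all called higher by 2.38 to 5.27, so the brightest probe set gave one of the lower values. Mcfd2 rose by 1.95 ± 0.15 (adjusted p = 0.000381). Surf4, a receptor for soluble cargo, had 5463, 5456 and 5186 in plasma cells, against 1009, 1024 and 1065 in B cells (2.36 ± 0.11, adjusted p = 7.01e-05), and its 4 other probe sets rose by 1.39 to 2.73. The groups of both Lman1 and Surf4 were widely separate. Lman2, a lectin of the early secretory pathway related to Lman1, rose by 1.06 ± 0.21 (adjusted p = 0.0124). Its adjusted p lay above the threshold with plasma cell array 1 (0.0521) or 2 (0.0552) left out, while its second probe set rose by 1.93.

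The p24 proteins of the Tmed family cycle between ER and Golgi in both kinds of vesicle and help load cargo, and 2 of the 4 were called. Tmed3 had 4856, 4898 and 4317 in plasma cells, against 623, 791 and 658 in B cells (2.74 ± 0.14, adjusted p = 0.000101). Tmed10 rose by 1.65 ± 0.13 (adjusted p = 0.000377). For Tmed2 the only probe set with 1 symbol had 1022, 1188 and 1155 in plasma cells, against 444, 843 and 956 in B cells, with B cell array 1 far below the others (0.64 ± 0.30, adjusted p = 0.168). With that array left out the log2 fold change was 0.31 (adjusted p = 0.0849). Its 6 other probe sets, shared with the symbol Gm10698, were all called higher by 0.69 to 2.73, and these cannot be assigned to Tmed2 alone. Tmed9 had 12042, 12142 and 11878 in plasma cells, against 6228, 8895 and 9561 in B cells (0.57 ± 0.19, adjusted p = 0.0706). It was called with B cell array 1 left out (adjusted p = 0.0184) and under 6 of the other 15 alternatives, and its second probe set rose by 0.96.

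All 7 tethers, SNAREs and Golgi matrix genes were called higher, with a median log2 fold change of 1.11. Bet1, a SNARE of ER to Golgi vesicles, had 4713, 4832 and 4265 in plasma cells, against 996, 759.6 and 825 in B cells (2.41 ± 0.15, adjusted p = 0.000162). Its SNARE partners Sec22b (1.65 ± 0.13, adjusted p = 0.00036) and Stx5a (0.71 ± 0.20, adjusted p = 0.0415) rose less. Uso1, the tether that captures COPII vesicles, rose by 1.92 ± 0.16 (adjusted p = 0.000462), and the Golgi stacking protein Gorasp2 by 1.04 ± 0.16 (adjusted p = 0.00427). Golgb1, the long Golgi tether giantin, had 2489.5, 2390.2 and 2435 in plasma cells, against 686, 1359 and 1507 in B cells. B cell array 1 lay well below the other B cell arrays. The log2 fold change was 1.11 ± 0.31 (adjusted p = 0.0404), and without B cell array 1 it was 0.76 (adjusted p = 0.00242). Golga3, a golgin, had 1347, 1191 and 1091 in plasma cells, against 839, 715 and 785 in B cells (0.62 ± 0.14, adjusted p = 0.019).

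The calls of Stx5a, Golgb1 and Golga3 did not hold under every alternative. Without B cell array 1 they were kept, at adjusted p-values of 0.00609, 0.00242 and 0.0104. With a plasma cell array left out, the log2 fold change stayed at 0.70 to 0.73 for Stx5a and 1.09 to 1.12 for Golgb1. That of Golga3 was 0.54 without plasma cell array 1. For Stx5a the adjusted p exceeded the threshold with plasma cell array 1 (0.123), 2 (0.125) or 3 (0.108) left out, with B cell array 2 (0.0568) or 3 (0.0651) left out, with a pseudocount of 1 (0.0561) and after median centring (0.113). For Golgb1 this happened with plasma cell array 1 (0.12), 2 (0.112) or 3 (0.11) left out, with B cell array 2 (0.0674) left out, with a pseudocount of 1 (0.0555), with the mean of its probe sets (0.0772) and after median centring (0.0625). For Golga3 this happened with plasma cell array 1 (0.0807) or 2 (0.0706) left out, with B cell array 2 (0.0704) or 3 (0.0597) left out, with no x or s suffix probe sets (0.0646) and after median centring (0.0629). Tango2, named after a fly screen for transport and Golgi organization, had 719, 671 and 681 in plasma cells, against 557, 579 and 619 in B cells. It stood lowest of the positive fold changes, at 0.23 ± 0.11 (adjusted p = 0.183), and with the mean of its probe sets the sign turned (−0.09).

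**Figure D3:**
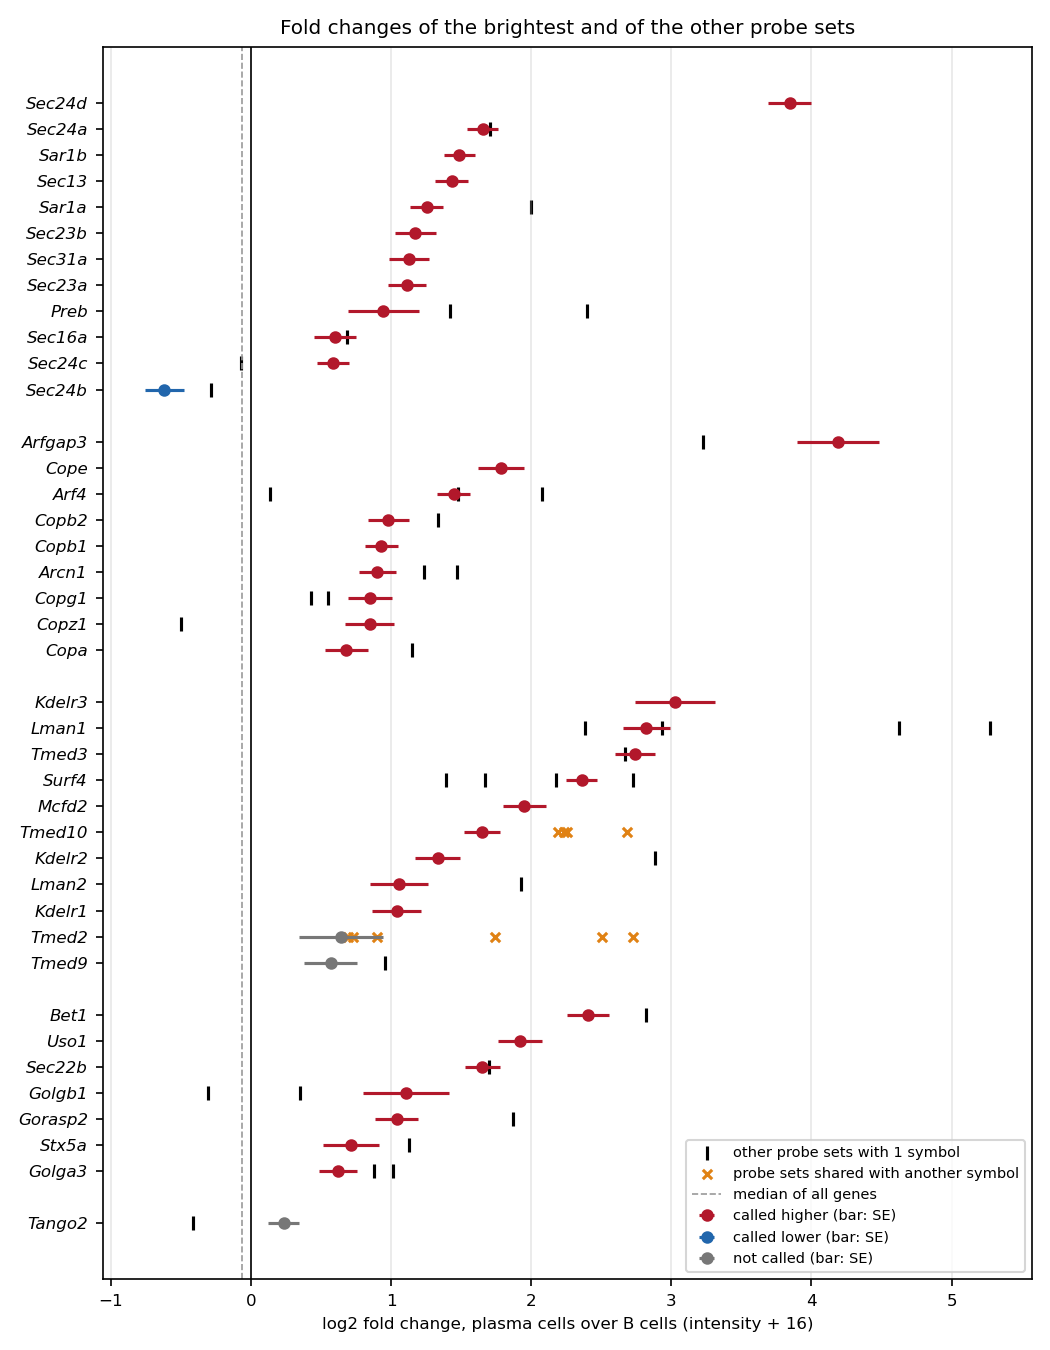
Log2 fold change of plasma cells over B cells for the brightest probe set of each gene (dot, bar for SE, red for called higher, blue for called lower, grey for not called), with other probe sets of the gene as black ticks and probe sets shared with another symbol as orange crosses. Apart from Sec24b, every dot lies right of 0, and the black ticks spread widely for Lman1, Surf4, Preb and Kdelr2.

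Other probe sets gave a check on these values. The 40 genes had 79 probe sets with 1 symbol. Of the 39 not used above, 30 were called higher and 0 lower when adjusted over all 45037 probe sets, where 13.4% were called higher and 12.8% lower. The 9 that were not called included 3 at control background on all 6 arrays, 1 each of Arf4, Copz1 and Golgb1. A further 10 probe sets shared with a second symbol, 6 for Tmed2 and 4 for Tmed10, were all called higher.

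A list of 82 further genes of ER to Golgi traffic, set by function, was compared over the same fit. Of 80 measured, 32 (40%) were called higher and 5 (6.25%) lower, where 17.7% and 12.4% of all genes were, with a median log2 fold change of 0.32. The highest was Copz2, an isoform of the coatomer zeta subunit, with 1312, 1287 and 1183 in plasma cells, against 16.5, 19.3 and 20.8 in B cells, where it lay within control background. It was at least 43.9-fold higher in plasma cells (adjusted p = 1.84e-05), in contrast to the smaller rise of Copz1. Next came Scfd2, of the Sec1 family, with 993 ± 32.2 in plasma cells, against 122 ± 26.7 in B cells (SD, n = 3 each) and a log2 fold change of 2.89 ± 0.18. Yipf6, a Golgi membrane protein, averaged 3703 ± 116 in plasma cells, against 541 ± 105 in B cells (2.76 ± 0.17), and Ergic1, a cycling protein of the intermediate compartment, averaged 7158 ± 382 in plasma cells, against 1477 ± 221 in B cells (2.27 ± 0.15). The p24 gene Tmed6 averaged 319 ± 159 in plasma cells, against 36.5 ± 9.03 in B cells (2.58 ± 0.36), with a wide spread over the plasma cell arrays. The lowest was Sec16b, the second Sec16 scaffold, which averaged 74.5 ± 31.9 in plasma cells, against 341 ± 77.6 in B cells (−2.01 ± 0.29, adjusted p = 0.00389). The p24 relative Tmed8 averaged 995 ± 95.2 in plasma cells, against 2875 ± 0.992 in B cells (−1.52 ± 0.12). The SNARE gene Stx17 averaged 317 ± 53.1 in plasma cells, against 871 ± 124 in B cells (−1.41 ± 0.18), and the SNARE gene Bnip1 averaged 797 ± 24.1 in plasma cells, against 1583 ± 182 in B cells (−0.97 ± 0.13). Sec22c averaged 578 ± 80.0 in plasma cells, against 1013 ± 67.6 in B cells (−0.80 ± 0.15). With B cell array 1 left out, 37 of the 80 were higher and 12 lower, where 4135 and 3856 of all 18193 genes were. The lower call of Sec16b thus stood opposite to the small rise of Sec16a, a pair whose difference was not tested.

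**Figure D4:**
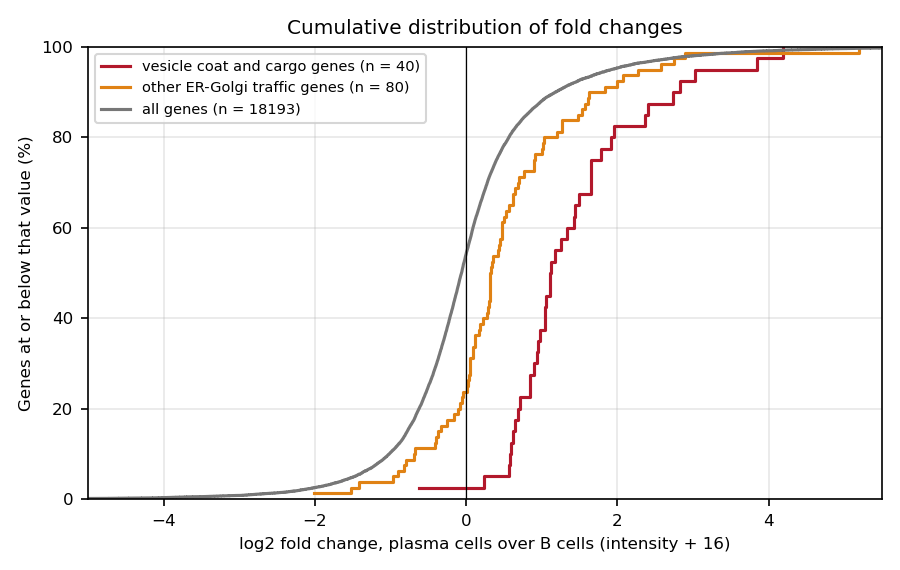
Cumulative share of genes (%) against log2 fold change of plasma cells over B cells, for the 40 vesicle coat and cargo genes (red), 80 other ER-Golgi traffic genes (orange) and all 18193 genes (grey). The red curve lies to the right of both others over most of its range, with medians of 1.12, 0.32 and −0.06.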

How the data were processed

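The authors deposited linear intensity values of 45101 probe sets for each array. Per the labels' protocols, amplification used NuGEN's Ovation V2 kit. The summary, background correction and normalization are not given in the sources used here, and 0 value columns were left unmatched. Of the probe sets, 34945 had 1 symbol in the platform annotation, updated through Entrez identifiers against RefSeq (34741 matched), 932 had several and 64 were controls. The brightest single-symbol probe set by mean intensity represented each gene. Values were tested as log2(intensity + 16), which understates changes of dim genes, with limma 3.58.1 in R 4.3.3 (lmFit, eBayes) and Benjamini-Hochberg adjustment over 18193 genes. Background was the 95th percentile of 27 bacterial control probe sets (23.0 to 41.8). Folds written "at least" set B cell values to it. Nothing in the labels says that replicates were separate animals, and p-values then measure only the spread of these arrays, which may be technical. Precision is limited by having 3 arrays per group. The members and lists were chosen with earlier results of these data known.

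The genes given with values per array are the paralogue families, the 5 other highest and the 5 other lowest members, members not called or lower, and Copz2. The other 4 highest and the 5 lowest called genes of the further list have means. Values of Arf4, Cope and Golgb1 were added after they were seen. Alternatives were another pseudocount (1 or 64), the mean of all probe sets, no probe sets of the suffixes x and s, median centring, quantile normalization, a background filter, array weights, a variance trend, the replicate number as a block, and leaving out each array.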

Additional observations from a re-analysis of the deposited data

How the results depend on the processing

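Over 16 alternatives, 28 of the 40 genes kept their direction and their side of the threshold, and Sec24d, Arfgap3, Kdelr3, Lman1, Tmed3, Bet1 and Surf4 were among them. Tmed2 also belongs to these 28, as a gene not called under any alternative (limma adjusted p of 0.0502 to 0.334). The other 12 were Sec24b, Sec24c, Sec16a, Preb, Copa, Copz1, Lman2, Golgb1, Stx5a, Golga3, Tmed9 and Tango2. Median centring moved the median of all genes by 0.12 and gave 28 genes of the set higher and 0 lower, a median log2 fold change of 1.24, 3 lower genes in the further list and 1253 lower genes in all, against 2248 without centring. The mean of all probe sets moved the median of the set to 1.36 and turned the sign of Tango2 (-0.0899) and of Sar1b minus Sar1a (−0.14). It also left 8 of the 11 paralogue pairs with arrays that did not overlap, against 10 with the brightest probe sets. Array weights, in which B cell array 1 weighed 0.0918, gave 13 lower genes in the further list and 4860 higher and 4696 lower genes in all. The cause of these shifts was not tested. Leaving out each array gave 27 to 37 higher and 0 to 1 lower genes of the set, medians of 1.03 to 1.21, 24 to 37 higher and 5 to 12 lower genes in the further list, 2239 to 4135 higher and 1351 to 3856 lower genes in all, and 10 to 11 paralogue pairs with arrays that did not overlap, against 10 with all arrays. Over all genes, 3856 were lower with B cell array 1 left out, 1351 with plasma cell array 1 left out and 1371 with plasma cell array 2 left out. The replicate number as a block gave 28 higher and 0 lower genes of the set, with the calls of Sec24b, Sec24c, Sec16a, Preb, Copa, Copz1, Golgb1, Stx5a and Golga3 lost at adjusted p-values of 0.0520 to 0.0819. Same-numbered arrays did not deviate together (correlations of 0.042, 0.0051 and 0.044), so the numbers were not taken as pairs.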
